A study of Mus musculus with 14 samples.

Results

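Clusters of SMAD4 peaks are stretches of the mouse genome in which at least 3 SMAD4 peaks of BMP6-stimulated muscle stem cells (MuSCs) lay close together. They were chosen by joining all SMAD4 peaks of BMP6-stimulated cells that were separated by at most 12500 bp and by keeping the joined regions with 3 or more peaks. The 12860 SMAD4 peaks formed 8400 regions, of which 973 were clusters, 1391 held 2 peaks and 6036 were single peaks. The clusters held 4042 peaks, which was 31.4% of the list (95% interval 30.6 to 32.2%), and they covered 13.4 Mb or 0.490% of the genome. Because SMAD4 peaks of BMP6-stimulated cells selected the clusters, the number, spacing and signal of those peaks are given as a description and carry no test.

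The peaks came from CUT&Tag, in which an antibody directs a transposase to the chromatin it recognizes, so that DNA is cut and tagged at the bound sites. The cells were MuSCs of female, 9-week-old C57BL/6N(Tg(Pax7-EGFP)Tajb) mice, in which a green fluorescent protein under control of the Pax7 gene marks the stem cells. They were cultured for 1 day, sorted for that fluorescence and cultured for 2 more days, at 3% oxygen. Both groups were starved for 6 h without serum in the presence of 200 ng/mL BMPR1A-Fc, a soluble receptor that captures BMPs, and then received either 100 ng/mL BMP6 or the vehicle (4 mM HCl with 0.1% BSA) for 1 h. Each library used 100000 cells after a light fixation (2 min, 0.1% formaldehyde). Antibodies recognized SMAD4, pSMAD1/5/9 or H3K27ac, with 2 biological replicates per antibody and treatment, and both replicates were combined into 1 list of reproducible peaks. The lists held 12860 SMAD4 and 7339 pSMAD1/5/9 peaks in BMP6-stimulated cells, 8577 and 949 in vehicle, and 78050 and 67790 H3K27ac peaks. With 1 list per group there is no spread between replicates, so no comparison below has a test. The intervals are Wilson 95% intervals and cover counting error over peaks or regions only, and neighboring peaks are not independent. Read counts were not part of the lists, and sequencing depth at a given peak is therefore unknown. A site occupied in fewer cells cannot be told apart from a site with less binding per cell.

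BMPs bind receptors that phosphorylate SMAD1, SMAD5 and SMAD9, and the phosphorylated proteins enter the nucleus together with SMAD4. SMAD4 is shared with the TGF-β branch of the pathway, whose own SMADs were not probed here. SMAD proteins bind short DNA motifs with modest affinity and are often found at regions that other transcription factors keep accessible. H3K27ac marks active promoters and enhancers, and groups of neighboring enhancers around cell identity genes are a known feature of many cell types. In MuSCs, BMP signaling is known to hold back differentiation.

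The identity of the cells was checked with H3K27ac at the transcription start sites (TSSs) of marker genes. All 6 markers of MuSCs and myoblasts (Pax7, Myod1, Myf5, Cdh15, Itga7 and Des) lay under an H3K27ac peak in both groups. Of 14 markers of fibro-adipogenic, endothelial, immune, Schwann and mural cells, 2 did so, Acta2 and Cspg4, in both groups.

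The sequences at the summits of the clusters named most often below are shown first, because they let a reader compare what SMAD4 peaks of a cluster have in common at the level of DNA. Each is the plus strand of GRCm39 over 200 bp, centered on the summit of the strongest SMAD4 peak of the cluster whose window lay outside every annotated exon. Capitals mark the SMAD motifs GGAGCC or GGCGCC and the SMAD box GTCT, on either strand. Id1, a BMP target that inhibits DNA binding by MYOD1, is represented by a window 1043 bp upstream of its TSS (chr2:152577022-152577221), and Id3, a relative of Id1, by a window 4483 bp downstream of its TSS (chr4:135875191-135875390). Pax7, the factor that defines MuSCs, is represented by its cluster of 17 peaks, in a window downstream of the gene (chr4:139417031-139417230), and Lmna, which encodes the nuclear lamina proteins lamin A and C, by a window in an intron (chr3:88399914-88400113). The window of Snai1, a transcriptional repressor, lay 37520 bp downstream of its TSS (chr2:167417533-167417732), and that of Lfng, a glycosyltransferase that modifies Notch receptors, in an intron (chr5:140596950-140597149).
Id1: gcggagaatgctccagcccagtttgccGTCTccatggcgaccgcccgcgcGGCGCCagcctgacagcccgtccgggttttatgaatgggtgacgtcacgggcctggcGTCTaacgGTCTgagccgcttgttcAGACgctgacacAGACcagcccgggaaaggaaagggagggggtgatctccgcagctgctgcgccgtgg
Id3: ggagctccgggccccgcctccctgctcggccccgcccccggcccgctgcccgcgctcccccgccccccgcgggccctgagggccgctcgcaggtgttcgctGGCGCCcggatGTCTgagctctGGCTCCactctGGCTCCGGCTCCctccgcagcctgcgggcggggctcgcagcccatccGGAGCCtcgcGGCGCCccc
Pax7: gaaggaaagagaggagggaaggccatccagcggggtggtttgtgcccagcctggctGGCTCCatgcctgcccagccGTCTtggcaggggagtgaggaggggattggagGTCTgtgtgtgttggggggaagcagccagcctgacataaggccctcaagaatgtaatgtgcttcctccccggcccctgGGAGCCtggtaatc
Lmna: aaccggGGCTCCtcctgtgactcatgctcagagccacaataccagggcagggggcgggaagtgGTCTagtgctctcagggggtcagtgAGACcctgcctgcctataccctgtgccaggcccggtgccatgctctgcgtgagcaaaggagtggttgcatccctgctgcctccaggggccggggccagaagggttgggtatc
Snai1: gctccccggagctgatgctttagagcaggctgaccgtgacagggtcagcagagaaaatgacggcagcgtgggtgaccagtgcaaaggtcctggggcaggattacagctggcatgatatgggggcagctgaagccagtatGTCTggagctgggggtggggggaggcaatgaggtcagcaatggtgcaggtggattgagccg
Lfng: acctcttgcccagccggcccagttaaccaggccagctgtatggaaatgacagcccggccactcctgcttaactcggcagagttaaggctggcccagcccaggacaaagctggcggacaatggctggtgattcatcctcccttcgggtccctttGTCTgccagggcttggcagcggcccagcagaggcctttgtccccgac

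The windows of Id1 and Id3 held the GC-rich SMAD motif 1 and 6 times and the SMAD box 5 times and 1 time, whereas the windows of Snai1 and Lfng held no GC-rich motif and 1 SMAD box each. In the Id3 window, GGCGCC was followed after 5 bases by GTCT, from base 102 of the window, which is the spacing of a classical BMP-responsive element. All 6 peaks overlapped a pSMAD1/5/9 peak of BMP6-stimulated cells, and that of Lfng alone among them did not overlap a SMAD4 peak of vehicle. The signal of the Id1 peak was 61041 and 27322 in the first and second replicate column, and that of the Lfng peak 7919 and 1860, so that the Id1 peak ranked 35 and the Lfng peak 6299 of 12860. The signal is the peak caller's own score. The replicate columns carry no replicate number.

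Motifs were then counted in the windows of 200 bp around all summits. GGAGCC or GGCGCC was present in 27.5% of 4042 clustered summits (26.2 to 28.9%), in 28.8% of 8818 other summits (27.8 to 29.7%) and in 28.4% of all SMAD4 summits. Away from TSSs it was more frequent inside clusters (23.2%, 21.7 to 24.7%) than outside (20.2%, 19.2 to 21.3%). The windows inside clusters were also more GC-rich there, with a median of 54.0% against 52.0%, and the part of GC content in the difference was not tested. The SMAD box GTCT occurred in 84.0% and 82.5% of the windows inside and outside of clusters, which is a high share because the motif is short. The palindrome GTCTAGAC was found in 1.61% (1.26 to 2.04%) and 1.10% (0.903 to 1.34%). The BMP-responsive spacing seen at Id3 was found in 22 clustered and 33 other summits, 0.544% and 0.374%, with overlapping intervals. CAGCTG, an E-box that MYOD1 binds, was more frequent inside clusters (32.1%, 30.6 to 33.5%) than outside (27.7%, 26.8 to 28.6%). Away from TSSs the shares were 35.3% and 35.1%. TGACTCA or TGAGTCA, the site of AP-1, was present in 15.8% and 14.7%. Away from TSSs its share was 18.3% inside clusters (16.9 to 19.7%) and 20.5% outside (19.5 to 21.6%), with intervals that just overlapped. Among clustered peaks, those that overlapped pSMAD1/5/9 held the E-box in 34.8% and the AP-1 site in 17.9%, and those that did not in 29.0% and 13.5%. For the SMAD motifs the shares were 28.8% and 26.1% for GGAGCC or GGCGCC and 83.6% and 84.5% for GTCT. The palindrome was found in 1.35% and 1.90%. Peaks on pSMAD1/5/9 also had a higher median GC content, 56.0% against 54.0%. The parts of GC content and peak signal in these differences were not tested. A motif match is a description of the sequence and does not show that a factor was bound.

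Most clusters were small. Exactly 3 peaks made up 496 clusters and 4 peaks 227, whereas 26 clusters held 10 or more peaks, up to 18. The median length was 12276 bp, with quartiles of 6789 and 18153 bp. The gaps between neighboring peaks of a cluster had a median of 2178 bp, and 35.3% of the 3069 gaps were shorter than 1 kb, so that closely split peaks contributed to the count. When peaks closer than 1 kb were counted as 1 peak, 620 clusters remained. At the edge of the rule, 63 gaps were up to 500 bp shorter than the joining distance and 61 were up to 500 bp longer, and 38 clusters held a gap of the former kind. Clusters were found on 20 chromosomes. The X chromosome held 18 of them, 1.85% of clusters against 4.55% of all regions.

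Strong SMAD4 peaks were common in clusters. The list was split by signal into 3 parts of equal size, and 40.2% of the strong part, 28.6% of the middle part and 25.5% of the weak part lay in clusters. Among the 100 strongest SMAD4 peaks, 63 lay in clusters.

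pSMAD1/5/9, the BMP-specific partner of SMAD4, was found in nearly all clusters after stimulation. At least 1 pSMAD1/5/9 peak lay in 877 of 973 clusters (90.1%, 88.1 to 91.9%), compared with 66.0% of regions with 2 peaks, 34.5% of single peaks and 46.1% of all regions. The median was 2 pSMAD1/5/9 peaks per cluster, with a range from 0 to 11, and 603 clusters held at least 2. In all, 2166 of the 7339 pSMAD1/5/9 peaks (29.5%) lay in clusters. Of those 2166, 94.6% overlapped a SMAD4 peak and the others lay between SMAD4 peaks.

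A cluster is longer than a single peak and so has more room for a pSMAD1/5/9 peak, which makes the single SMAD4 peak the fairer unit. Of the clustered SMAD4 peaks, 53.2% overlapped pSMAD1/5/9 (51.7 to 54.7%), compared with 37.8% outside clusters (36.8 to 38.8%) and 42.7% of all SMAD4 peaks. The share was 34.5% for single peaks, 48.9% in clusters of 3 peaks and 61.0% (55.4 to 66.2%) in clusters of 10 or more. Peak strength moved with this difference, and within each of the 3 parts by signal the share inside clusters was still above that outside. It was 81.9% against 71.5% in the strong, 41.1% against 34.2% in the middle and 21.5% against 14.3% in the weak part, without overlap of the intervals. The difference was present at each type of location. In intergenic sequence, 54.2% of clustered and 33.4% of other peaks overlapped pSMAD1/5/9, and within 2 kb of a TSS 54.6% and 44.8%. Differences in signal that remained within a part were not tested.

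**Figure D1:**
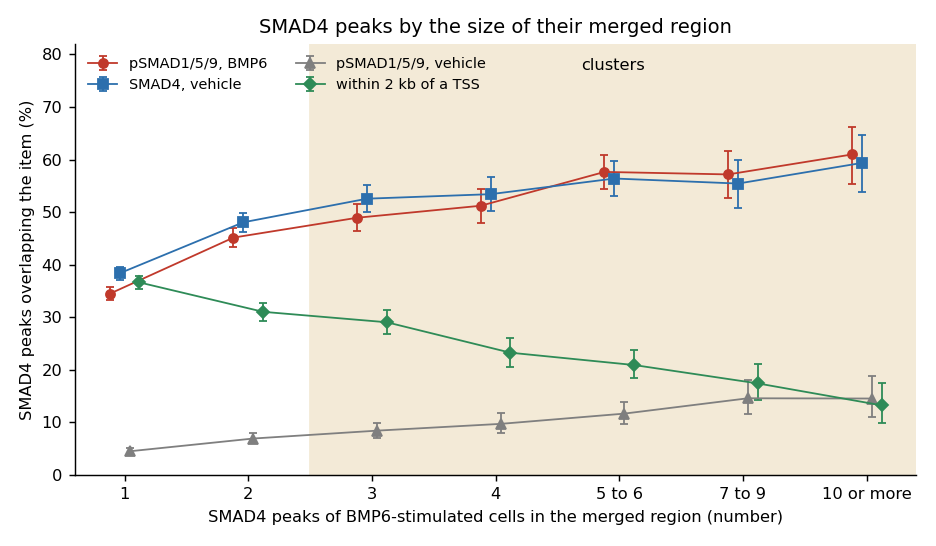
Share of SMAD4 peaks of BMP6-stimulated cells (y axis, percent) that overlapped pSMAD1/5/9 after BMP6, SMAD4 in vehicle, pSMAD1/5/9 in vehicle or the 2 kb around a TSS, by the number of SMAD4 peaks in their merged region (x axis). Points are shares, bars are Wilson 95% intervals and shading marks clusters. The pSMAD1/5/9 share is 34.5% for single peaks and 61.0% in clusters of 10 or more peaks, while the share near a TSS is 36.6% and 13.2%.

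Within a cluster, the pSMAD1/5/9 peaks were unevenly spread. The strongest SMAD4 peak of each cluster overlapped pSMAD1/5/9 in 79.1% of clusters, and the other 3069 peaks did so in 45.0%. The former were picked by signal, and overlap rose with signal both inside and outside clusters. The part of signal in this difference was not tested. Every SMAD4 peak of a cluster overlapped pSMAD1/5/9 in 99 clusters, 10.2%, whereas 96 clusters (9.87%) had no pSMAD1/5/9 peak at all. A cluster was therefore in most cases a mixture of sites with and without pSMAD1/5/9.

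In vehicle cells, most of these regions already carried SMAD4. A vehicle SMAD4 peak was absent from 67 clusters (6.89%, 5.46 to 8.65%), compared with 29.0% of regions with 2 peaks, 61.6% of single peaks and 49.9% of all regions. The median was 2 vehicle SMAD4 peaks per cluster (quartiles 1 and 3) beside a median of 3 in BMP6-stimulated cells (quartiles 3 and 5). Fewer SMAD4 peaks in vehicle than after BMP6 were listed in 795 clusters, equal numbers in 135 and more in 43. Peak by peak, 54.4% of clustered SMAD4 peaks overlapped a vehicle SMAD4 peak (52.9 to 56.0%), compared with 41.4% of other peaks (40.4 to 42.4%) and 45.5% of all. The other 1842 clustered peaks had no vehicle counterpart, and 1623 of them (88.1%) lay in a cluster that held a vehicle SMAD4 peak elsewhere. Because clusters held many strong peaks, the share on vehicle SMAD4 was also compared within the 3 parts by signal. It was 83.4% inside and 77.5% outside clusters in the strong part. In the middle part it was 44.2% and 38.6%, and in the weak part 20.2% and 15.1%. Differences in signal that remained within a part were not tested.

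The lower count in vehicle cannot be read as a change by itself, because the clusters were chosen on the other list and the vehicle list is shorter. The same rule was therefore applied to the vehicle list and to the strongest 8577 SMAD4 peaks of BMP6-stimulated cells, a list of equal length. Vehicle peaks formed 545 clusters with 2190 peaks, 25.5% of their list. The shortened BMP6 list formed 549 clusters with 2188 peaks, also 25.5%. At equal length, 62.7% of BMP6 clusters (58.5 to 66.6%) held fewer vehicle peaks, and 68.6% of vehicle clusters (64.6 to 72.4%) held fewer BMP6 peaks. Whichever list chose the clusters, most of them held fewer peaks of the other list. None of the other list was found in 18 of 549 BMP6 clusters (3.28%, 2.08 to 5.12%), below the 6.89% of the whole list, and in 7 of 545 vehicle clusters (1.28%, 0.624 to 2.63%). With the whole BMP6 list, 411 of the 545 vehicle clusters (75.4%) overlapped a cluster of BMP6-stimulated cells, and 412 of the 973 (42.3%) overlapped a vehicle cluster.

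**Figure D2:**
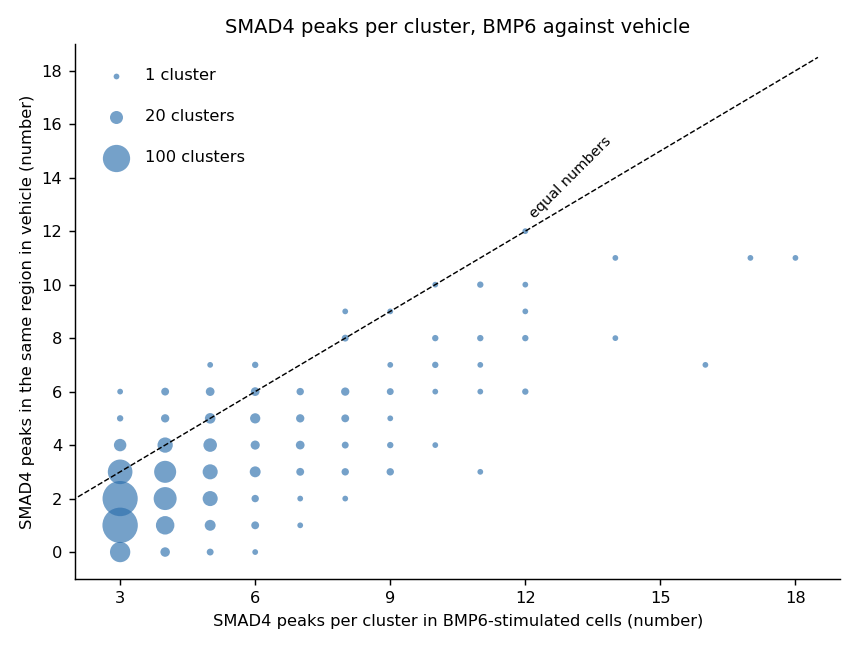
Number of SMAD4 peaks per cluster in BMP6-stimulated cells (x axis) and in the same region in vehicle cells (y axis), with the area of a point growing with the number of clusters; the dashed line marks equal numbers. Of 973 clusters, 795 lie below the line, 135 on it and 43 above it, and the clusters were chosen on the values of the x axis.

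pSMAD1/5/9 was sparse in vehicle cells, yet a large part of what was listed lay in clusters. A vehicle pSMAD1/5/9 peak was found in 309 clusters (31.8%, 28.9 to 34.7%), compared with 12.2% of regions with 2 peaks, 4.47% of single peaks and 8.92% of all regions. With lists limited to an IDR of at most 0.01, the share of clusters was 14.4% (11.1 to 18.4%). Per SMAD4 peak, 10.6% of clustered peaks (9.65 to 11.5%) and 5.24% of other peaks (4.79 to 5.72%) overlapped vehicle pSMAD1/5/9. The part of peak signal in this difference was not tested. The share of clusters with such a peak was 22.2% at 3 SMAD4 peaks and 80.8% (21 of 26) in those of 10 or more. Of the 949 vehicle pSMAD1/5/9 peaks, 398 lay in clusters (41.9%, 38.8 to 45.1%), whereas 29.5% of the longer BMP6 list did. Of the strongest 949 pSMAD1/5/9 peaks after BMP6, 54.8% did (51.6 to 57.9%). The order of the groups in this share thus depended on the length of the list.

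Clusters with more SMAD4 in vehicle also held more pSMAD1/5/9 after BMP6. The share of SMAD4 peaks that overlapped pSMAD1/5/9 was 28.8% in the 67 clusters without a vehicle SMAD4 peak, 47.0% in the 507 clusters with 1 or 2, and 61.0% in the 399 clusters with 3 or more. Of the 67 clusters without vehicle SMAD4, 41 held a pSMAD1/5/9 peak (61.2%), beside 90.1% of all clusters. The minimum of 3 SMAD4 peaks was found in 54 of the 67, beside 496 of all 973 clusters. Sites with pSMAD1/5/9 and vehicle SMAD4 together made up 39.9% of clustered peaks and 24.5% of other peaks. Sites with pSMAD1/5/9 but no vehicle SMAD4 made up 13.3% of both, and sites with neither 32.3% and 45.2%. Peaks without vehicle SMAD4 were thus a smaller part of clustered peaks. The equal shares therefore do not mean that pSMAD1/5/9 was equally frequent among peaks without vehicle SMAD4. Clusters with more vehicle peaks also had more SMAD4 peaks after BMP6, and the part of cluster size in these shares was not tested.

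H3K27ac covered most of the length of clusters in both groups. In BMP6-stimulated cells the median cover was 85.0% of the cluster length (82.6 to 87.7%), with quartiles of 60.3% and 100%, and in vehicle 79.8% (76.2 to 82.7%). Between the SMAD4 peaks, where the rule placed no condition on the chromatin, the median cover was 80.4% in BMP6-stimulated and 73.8% in vehicle cells. For comparison, 5.77% of the genome lay under the H3K27ac peaks of BMP6-stimulated cells. The genome is no matched background, because the gaps adjoin SMAD4 peaks that nearly all overlapped H3K27ac. Clusters were spanned by a median of 2 separate H3K27ac peaks after BMP6 and 3 in vehicle, 261 were covered completely after BMP6, and 153 were covered over less than 50% of their length. Single peaks and regions with 2 peaks had a higher median cover, of 100%, and 56.4% of regions with 2 peaks were covered completely, compared with 26.8% of clusters. Regions with 2 peaks were shorter, with a median length of 3169 bp. Of the clustered SMAD4 peaks themselves, 99.0% overlapped H3K27ac, compared with 94.2% of other SMAD4 peaks.

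Cover differed little between the groups. In 777 clusters (79.9%) it differed by less than 10 percentage points, in 177 it was at least 10 points higher after BMP6 and in 19 at least 10 points lower. The median difference was 1.80 percentage points (quartiles 0 and 7.34). The H3K27ac list of BMP6-stimulated cells was also longer over the whole genome, at 157 Mb against 130 Mb in vehicle, and its part in the difference was not tested.

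**Figure D3:**
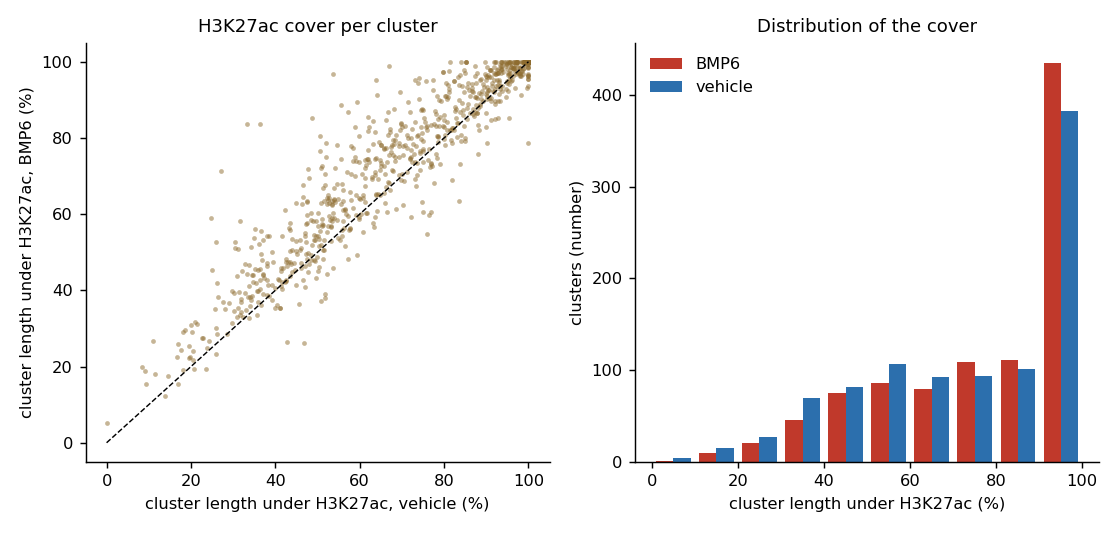
Share of each cluster's length under H3K27ac peaks in vehicle (x axis, left panel) and BMP6-stimulated cells (y axis, left panel), 1 point per cluster with the line of equality, and the number of clusters per 10 points of cover (right panel). The points lie near the line, and the medians are 85.0% after BMP6 and 79.8% in vehicle.

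By location, clustered peaks were farther from TSSs than other SMAD4 peaks. Within 2 kb of a TSS of a protein-coding gene lay 23.4% of clustered peaks (22.1 to 24.8%) and 34.8% of other peaks (33.9 to 35.9%), whereas introns held 34.9% and 28.1%. The share near a TSS was 36.6% for single peaks and 13.2% (9.90 to 17.5%) in clusters of 10 or more. At the level of whole regions the order was the opposite, since a longer region meets a TSS more easily. A TSS lay inside 458 clusters (47.1%, 44.0 to 50.2%), 34.2% of regions with 2 peaks, 27.9% of single peaks and 31.2% of all regions. A typical cluster with a promoter peak also had peaks elsewhere: 406 clusters combined peaks near a TSS with others, 74 had TSS peaks only and 493 had none near a TSS.

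Genes were attached to clusters by position only. A cluster was named by the protein-coding genes with a TSS inside it (458 clusters), otherwise by the gene whose body it touched (289 clusters) and otherwise by the nearest TSS (226 clusters, at a median distance of 47.4 kb). No expression values were used here, so a name does not say that the gene responds to the cluster.

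The 15 largest clusters, with 3 of the 7 clusters of 11 peaks taken by their summed signal, held 196 SMAD4 peaks, with 122 pSMAD1/5/9 peaks and 132 vehicle SMAD4 peaks in the same regions. Each had between 3 and 11 pSMAD1/5/9 peaks and between 6 and 12 vehicle SMAD4 peaks. A vehicle pSMAD1/5/9 peak was found in 13 of the 15, beside 31.8% of all clusters and 80.8% (21 of 26) of those with 10 or more peaks. The largest one, over the body of Cxxc5, a zinc finger gene linked to BMP and Wnt signaling, held 18 SMAD4 and 11 pSMAD1/5/9 peaks beside 11 vehicle SMAD4 peaks. The next one lay over the 3′ end of Pax7 and the sequence beyond it (chr4:139411372-139479416) and held 17 SMAD4 peaks, of which 14 were intergenic and nearer to the TSS of Tas1r2, a taste receptor gene. The cluster at the TSS of Pax7 itself (chr4:139548764-139578813) held 12.

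Pax7 (ENSMUSG00000028736.15, minus strand) named 4 clusters, which together held 36 SMAD4, 21 pSMAD1/5/9 and 24 vehicle SMAD4 peaks over 167 kb. They also held 11 of the 949 vehicle pSMAD1/5/9 peaks. In the cluster at the TSS, 10 of 12 SMAD4 peaks overlapped pSMAD1/5/9 and the same number overlapped vehicle SMAD4, the exceptions being the outermost peaks upstream, at 7674 and 17678 bp from the TSS. H3K27ac covered 93.9% of that cluster after BMP6 and 92.7% in vehicle. Myod1, the myogenic determination factor, had 12 SMAD4 peaks in a cluster that reached upstream of its TSS (chr7:45986590-46030288), with 9 pSMAD1/5/9 and 8 vehicle SMAD4 peaks. The strongest of the 12, ranked 403, lay 34765 bp upstream of the TSS, and a second cluster of 3 peaks was listed farther upstream.

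The other large clusters with a TSS inside are given by the gene of that TSS. Lmna (chr3:88395583-88422106) held 14 SMAD4 peaks, 13 of which overlapped pSMAD1/5/9, and 11 vehicle SMAD4 peaks. Pmepa1, a membrane protein that restrains TGF-β signaling, held 11 SMAD4 and 9 pSMAD1/5/9 peaks (chr2:173098328-173128494), and its strongest SMAD4 peak ranked 6 in the whole list. Col5a1, a chain of type V collagen, held 12 SMAD4 peaks beside 6 in vehicle. Ccn4, a matricellular protein, held 11 SMAD4 peaks beside 8 in vehicle. At Cdk5r1, an activator of CDK5, the counts were 12 and 12, so that this cluster was as large in vehicle. Socs3, a feedback inhibitor of cytokine receptors, held 12 SMAD4 but 3 pSMAD1/5/9 peaks, the lowest number among the 15. Arhgef2, a guanine nucleotide exchange factor, held 12 SMAD4 peaks and its strongest one ranked 1885, the weakest leading peak of the 15. A cluster with the TSSs of Iffo1 and Gapdh held 11 SMAD4, 10 pSMAD1/5/9 and 10 vehicle SMAD4 peaks.

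Some of the largest clusters held no TSS of a protein-coding gene. The cluster downstream of Snai1 (chr2:167394514-167449029) began 14401 bp from the TSS of Snai1 and held 12 SMAD4 peaks, all of them intergenic, and the 7 most distant ones were nearer to the TSS of Ube2v1. Of these, 8 overlapped pSMAD1/5/9, the region held 8 vehicle SMAD4 peaks and 10 pSMAD1/5/9 peaks, and no vehicle pSMAD1/5/9 peak was listed there. Its strongest peak, whose sequence is printed above, ranked 32. A cluster of 16 peaks on chromosome 2 (chr2:30582223-30613803) lay 77961 bp from the nearest TSS, that of the uncharacterized gene 1700001O22Rik, and a cluster of 14 peaks on chromosome 15 lay 46417 bp from Ppara, a nuclear receptor of fatty acid metabolism, and 8 of its peaks were nearer to the TSS of Wnt7b, a Wnt ligand.

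**Figure D4:**
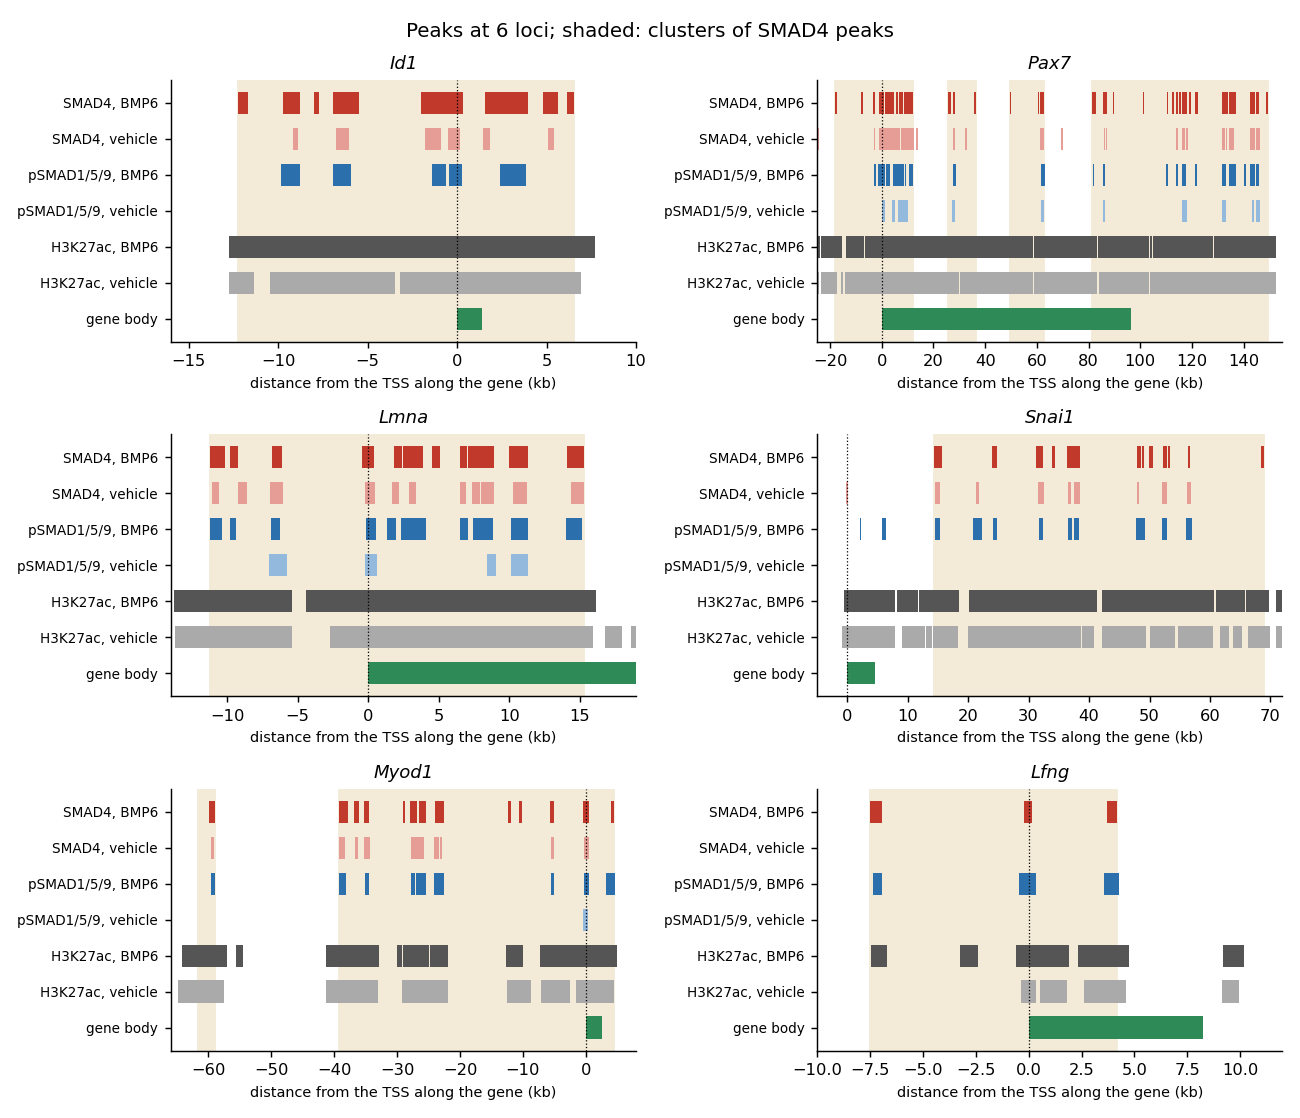
Peaks of the 6 lists and the gene body at Id1, Pax7, Lmna, Snai1, Myod1 and Lfng, by distance from the TSS in the direction of the gene (x axis, kb); clusters are shaded. Vehicle SMAD4 peaks are seen in the clusters of Id1, Pax7, Lmna, Snai1 and Myod1, and none in that of Lfng, where 3 SMAD4 and 3 pSMAD1/5/9 peaks were listed after BMP6.

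Genes of 6 lists were looked up in the clusters. The lists were made with earlier results of these data known, so their counts are no independent evidence. Of all 21757 protein-coding genes, 2.88% had their TSS in a cluster. On the lists, 46 of 105 genes had it, and 43 of these 46 were in a cluster with a pSMAD1/5/9 peak, which 90.1% of all clusters held. Counts of clusters with pSMAD1/5/9 in a list, given below, are near that share. The share was 12 of 20 for myogenic genes, 8 of 15 for TGF-β, YAP and matricellular genes, 8 of 18 for Notch pathway genes, 4 of 9 for AP-1 genes, 6 of 16 for cytoskeleton and matrix genes and 8 of 27 for BMP pathway genes. A cluster within 20 kb of the gene was found for 7.48% of all genes, and it added Snai1 and Notch2, Megf10, Fosb and Fosl1, and Ltbp2 and Smad3 to the genes of the lists. Clusters with several TSSs, such as those of Itga7, Tgfb1 and Hes6, cannot be ascribed to 1 gene. Counts given below for genes of the lists are those of the cluster that holds the TSS, and some of these genes named further clusters.

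**Figure D5:**
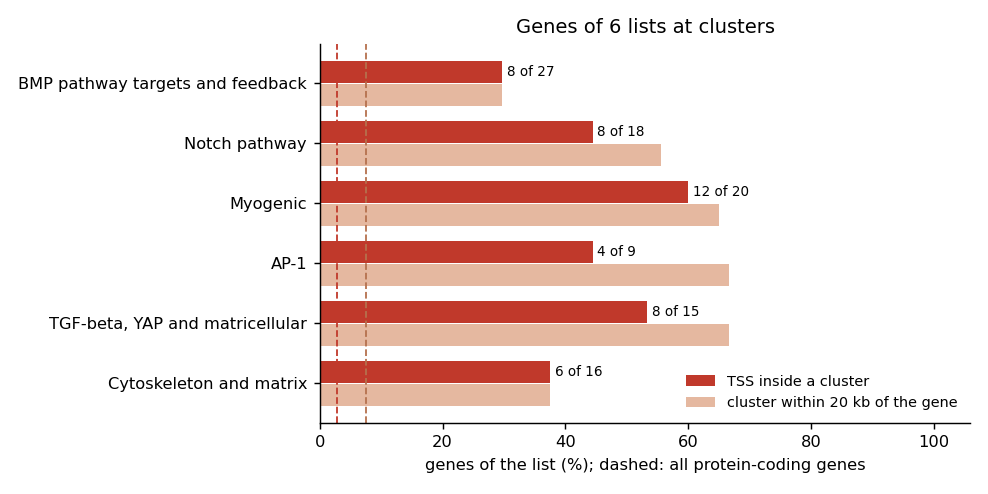
Share of the genes of each list (x axis, percent) whose TSS lay in a cluster (dark bars, with counts) or that had a cluster within 20 kb of the gene (light bars); dashed lines give both shares over all protein-coding genes, 2.88% and 7.48%. The lists were drawn up with earlier results of these data known.

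Of the BMP targets and feedback genes, Id1, Id2, Id3, Smad6, Smad7, Nog, Atoh8 and Ski had their TSS in a cluster. At Id1 (ENSMUSG00000042745.11, chr2:152565931-152584697), 9 SMAD4 peaks lay within 18.8 kb on both sides of the gene. Of these, 5 overlapped pSMAD1/5/9. The strongest, at 1043 bp upstream of the TSS, ranked 24 and 103 in the first and second replicate column, and the next ones, at 3362 bp downstream and 6493 bp upstream, ranked 164 and 208, and 339 and 203. The weakest peaks of the cluster, such as the outermost upstream one with ranks of 7030 and 11430, overlapped neither pSMAD1/5/9 nor vehicle SMAD4. Vehicle cells had 6 SMAD4 peaks there and no pSMAD1/5/9 peak.

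The remaining BMP genes differed in their pSMAD1/5/9. Id3 had 6 SMAD4 and 6 pSMAD1/5/9 peaks, and Id2 5 and 2. The inhibitory SMAD genes Smad6 and Smad7 had 6 and 9 SMAD4 peaks, and their strongest peaks ranked 10 and 7 of the list. At Smad6 the strongest summit was 16 bp and at Smad7 95 bp from the TSS. Ski, a corepressor of SMADs, had 6 SMAD4 and 4 pSMAD1/5/9 peaks, and Atoh8, a basic helix-loop-helix factor, 4 and 5. Over the 2 clusters that each of them named, the counts were 13 and 8 for Ski and 8 and 9 for Atoh8. Nog, which encodes the BMP antagonist noggin, was the exception. Its 3 SMAD4 peaks, with ranks between 4402 and 12406, were accompanied by no pSMAD1/5/9 and no vehicle SMAD4 peak.

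Among the Notch pathway genes, the Hes and Hey family members Hes1, Heyl and Hes6 had 4 SMAD4 peaks each, with 3, 4 and 4 pSMAD1/5/9 peaks. Vehicle SMAD4 peaks numbered 3, 4 and 4, so that Heyl and Hes6 had equal counts in both groups. The strongest SMAD4 peak near Hes6, at 998 bp upstream of its TSS, ranked 27. Lfng was the opposite case, with 3 SMAD4 and 3 pSMAD1/5/9 peaks and no vehicle SMAD4 peak. Its SMAD4 peaks lay 7116 bp upstream of the TSS, at the TSS and 3975 bp downstream of it, and all 3 overlapped pSMAD1/5/9, with ranks between 5437 and 8190. Of the receptors, Notch3 had 6 SMAD4 peaks with 1 pSMAD1/5/9 peak and Notch1 3 with none. Hes1 and Notch3 named 2 clusters each, which together held 8 SMAD4 and 6 pSMAD1/5/9 peaks for Hes1 and 10 and 4 for Notch3. The ligand gene Jag2 had 7 SMAD4 peaks beside 3 in vehicle, and Rbpj, the DNA-binding partner of Notch, had 3 beside 1.

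In the myogenic list, the 12 genes found included Pax7, Myf5, Myod1, Mymk, Mymx, Mef2a, Mef2d, Des, Cdh15, Itga7 and Sdc4. pSMAD1/5/9 was present in 11 of the 12 clusters and vehicle pSMAD1/5/9 in 8, beside 90.1% and 31.8% of all clusters. The 12 held a median of 5 SMAD4 peaks, beside 3 in all clusters. Larger clusters more often held vehicle pSMAD1/5/9, and the part of size was not tested. Myf5, a myogenic determination factor, had no pSMAD1/5/9 peak, and its 3 SMAD4 peaks, in a region shared with Myf6, were outnumbered by 4 in vehicle. The genes of myoblast fusion, Mymk and Mymx, had 6 and 4 SMAD4 peaks with 4 pSMAD1/5/9 peaks each, and 3 and 5 in vehicle. At Cdh15, which encodes M-cadherin, all 3 SMAD4 peaks overlapped pSMAD1/5/9 within 4.55 kb, and vehicle had 3 as well. Itga7, an integrin of muscle, shared a cluster of 8 SMAD4 and 9 pSMAD1/5/9 peaks with Cd63.

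The AP-1 genes Fosl2, Jun, Junb and Jund had 4, 3, 9 and 3 SMAD4 peaks, and each of the 4 clusters held a pSMAD1/5/9 peak in both groups, beside 90.1% of all clusters after BMP6 and 31.8% in vehicle. The part of cluster size in this was not tested. Junb stood out with 6 pSMAD1/5/9 and 6 vehicle SMAD4 peaks. In the TGF-β, YAP and matricellular list, the 8 genes found included Ccn1, Ccn2, Amotl2, Tgfb1, Tgfb2, Pmepa1 and Tgif1, and all 8 clusters held pSMAD1/5/9, beside 90.1% of all clusters. Ccn2, a matricellular protein, had 4 SMAD4 peaks, all of which overlapped pSMAD1/5/9, beside 2 in vehicle. The ligand genes Tgfb1 and Tgfb2 had 3 each and no vehicle SMAD4 peak in these clusters. Tgfb2 named 3 clusters, which together held 12 SMAD4 peaks and 3 vehicle SMAD4 peaks. The cytoskeleton and matrix genes Actb, Myh9, Flna, Vim, Lmna and Col5a1 had between 3 and 14 SMAD4 peaks, and all 6 clusters had fewer in vehicle, as did 81.7% of all clusters. At Vim, which encodes the intermediate filament vimentin, 3 SMAD4 peaks lay within 2.01 kb at the TSS, and vehicle had none.

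The clusters without a vehicle SMAD4 peak were small. The 10 with the most pSMAD1/5/9 peaks had between 3 and 5 SMAD4 and between 2 and 4 pSMAD1/5/9 peaks. Lfng, Vim and Tgfb2 had a TSS inside. Others were at Prr7 and the actin-binding drebrin gene Dbn1, or between genes, nearest to Olfml2b, Eipr1, 1700001O22Rik, Zfp469 and Rbm38. At the Olfml2b cluster, 49301 bp from the TSS, vehicle cells had 2 pSMAD1/5/9 peaks in spite of the missing SMAD4 peak, so absence from the vehicle SMAD4 list did not mean that the region was free of SMADs there.

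Of the 96 clusters without pSMAD1/5/9, 3 held 5 SMAD4 peaks and 15 held 4. The 3 and, by summed signal, the first 2 of the 15 are described. They lay in Dmd, the dystrophin gene (chrX:82633663-82644016), 89557 bp from Col6a3, a chain of type VI collagen, in Ccdc162, at the TSS of Gng2, a G protein subunit, and in Stard13. Their strongest SMAD4 peaks ranked between 2762 and 7820. Vehicle cells had 1 SMAD4 peak in 4 of these clusters and none in that of Ccdc162, 1 vehicle pSMAD1/5/9 peak lay in the Col6a3 cluster, and H3K27ac covered between 44.4% and 94.4% of their length after BMP6.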

How the data were processed

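CUT&Tag peak lists of pSMAD1/5/9, SMAD4 and H3K27ac in MuSCs with BMP6 or vehicle were used, which combine 12 of 14 libraries in 6 lists; 2 no-antibody controls were not analysed here. The authors brought libraries of an antibody to the same read number, mapped reads to GRCm39 (Bowtie2 2.5.4 and SAMtools 1.21, per the submitters' processing notes), called peaks per replicate with JAMM and combined replicates by IDR at 0.05. The deposited signal is a score of the peak caller without a common scale between lists. The IDR in the authors' lists is on a −log10 scale. The 2 replicate columns carry no replicate number.

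SMAD4 peaks were joined in Python. Overlap meant at least 1 bp. Genes were GENCODE canonical transcripts on GRCm39. Motifs were counted on both strands around summits, and the composite spacing was a later choice, made with the data in view. The tools were Python 3.11.15, pandas 2.3.3, scipy 1.17.1 and pysam 0.24.0. Intervals of medians are order-statistic intervals. Named clusters (ties by summed signal, or by the strongest pSMAD1/5/9 peak where pSMAD1/5/9 peaks were ranked) were the 15 with most peaks, the 10 without vehicle SMAD4 with most pSMAD1/5/9 peaks, the 5 largest without pSMAD1/5/9, and those with a TSS of a listed gene. A few clusters and genes that these rules select are not reported here. The members and lists were chosen with earlier results of these data known. Joining was tested on simulated data. Alternatives covered joining distance, IDR, minimum, overlap, replicate positions, autosomes, list length, genes and window.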

Additional observations from a re-analysis of the deposited data

How the results depend on the processing

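The lists hold 1 consensus per group, which limits every value to counting error. No paired analysis was possible because the values come from no test and the replicate columns carry no number. Of 96 alternative values, 56 stayed within the interval of the reported value, or within 1.5 times of it for the number of clusters, and 40 did not. The direction of the comparison between clustered and other peaks held under all 11 settings run for it, main one included, with pSMAD1/5/9 on 9.05 to 16.6 percentage points more clustered peaks. Replicate positions in place of the consensus gave 969 to 971 clusters, 31.3 to 31.4% of peaks inside, 90.1% with pSMAD1/5/9, 52.8% of clustered peaks on pSMAD1/5/9, a cover of 84.8 to 85.0%, a median of 2 vehicle SMAD4 peaks, 6.90 to 6.91% without one, 31.7 to 31.8% with vehicle pSMAD1/5/9 and 45.7 to 46.8% with a TSS.

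Joining at 5, 10 and 20 kb placed 18.0%, 27.7% and 39.6% of SMAD4 peaks in clusters, with a median H3K27ac cover of 100%, 92.1% and 70.6% and a TSS in 35.8%, 43.3% and 52.9%. At 5 kb there were 618 clusters and 55.9% of their peaks overlapped pSMAD1/5/9, compared with 51.6% at 20 kb. An IDR of at most 0.01 gave 354 clusters with 22.0% of peaks, 56.6% of them on pSMAD1/5/9, a cover of 90.8%, 8.76% of clusters without vehicle SMAD4, 14.4% with vehicle pSMAD1/5/9 and a SMAD site at 29.9% of summits. A minimum of 4 peaks gave 477 clusters with 19.9% of peaks, 55.7% of them on pSMAD1/5/9, 96.2% of clusters with pSMAD1/5/9, a median of 3 vehicle SMAD4 peaks, 2.73% without one, 41.7% with vehicle pSMAD1/5/9 and 50.5% with a TSS. Counting peaks closer than 1 kb as 1 changed only which regions reached the minimum, and the shares were still counted over unmerged peaks. The 620 clusters then held 22.5% of peaks, 92.4% had pSMAD1/5/9, the cover was 79.1%, the median was 3 vehicle SMAD4 peaks, 5.32% had none and 35.3% had vehicle pSMAD1/5/9. An overlap of 50% of both peaks lowered the clustered peaks on pSMAD1/5/9 to 38.8%. The vehicle H3K27ac list gave a cover of 79.8%. At equal list length the median was 3 vehicle SMAD4 peaks and 3.28% had none. With lncRNA genes added, 64.5% of clusters held a TSS, and windows of 100 bp lowered the SMAD site to 14.7%. Wider joining, stricter lists and larger minimums change which regions count as clusters by construction, and the cause of the other shifts was not tested.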

Other observations

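A few regions went the other way. Of the 545 clusters in the vehicle list, 3 had no SMAD4 peak in BMP6-stimulated cells, and they are named here after their values were seen. One held the TSS of Mt2, a metallothionein that binds metal ions, with 3 vehicle SMAD4 peaks (chr8:94897981-94905840). The others held no TSS of a protein-coding gene and were nearest to those of Upp2 (42868 bp) and Bcl11b (247707 bp), also with 3 peaks each. Among the clusters of BMP6-stimulated cells, the one nearest to Hacl1 (chr14:31381487-31392306) had 6 SMAD4 peaks in vehicle and 3 after BMP6.

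Some clusters lay close to each other. Of 953 neighboring pairs on the same chromosome, 216 (22.7%) were less than 100 kb apart. Runx1, a transcription factor, named 6 clusters with 28 SMAD4 and 17 pSMAD1/5/9 peaks over 502 kb, and Bcor, a corepressor gene on the X chromosome, 5 clusters with 18 and 10 over 588 kb. These genes were chosen after their counts had been seen. Chromosome 8 had the highest share of its SMAD4 peaks in clusters, 39.6%, and the X chromosome the lowest, 13.4%.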
